A study of Mus musculus with 2 samples.

Results

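In 84 of 1624 genes measured in Purkinje cells, the transcript with the largest share of a gene's output was a different one in each of 2 cell pools. A gene was taken when it had at least 2 annotated transcripts, when its transcripts summed to at least 50 TPM, a length-normalised measure of abundance, in each pool, and when the leading transcript differed between the pools. The leading transcript is the one with the highest deposited isoform percent, its percentage of the gene's TPM. The background of the rule is therefore 5.17% of the genes in range (exact binomial 95% interval 4.15% to 6.36%, counting error only), taken from 14989 mouse genes with at least 2 transcripts and 43346 mouse genes in all. The 84 genes were thus chosen by their measured transcript shares, which are given as a description, with no test, since no pool was left over to test them in.

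Purkinje cells are the large output neurons of the cerebellar cortex. The study sequenced RNA from 2 pools of 50 Purkinje cells each, with added spike-in RNA, and the labels link a laser-capture protocol for taking the cells. The labels give both pools as cells of adult male wild-type C57Bl6 mice, strain B6NCrl, aged 8 months, and number them as biological replicates 1 and 2 (pool 1 and pool 2 here). The sole group has no comparison group, both pools carry the same donor identifier, and separate animals are therefore not established. A Smart-seq protocol, a full-length amplification method for small inputs, is linked to pool 2 alone, and the extraction protocol of pool 1 is not stated. Any difference in library preparation, in the captured cells or in chance cannot be told apart with 1 library on each side.

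Most mammalian genes give several transcripts through alternative promoters, alternative splicing and alternative polyadenylation. Some alternatives change the protein, some change only the untranslated ends, and some keep an intron or lack an open reading frame. In brain, neuron-specific splicing is known for small exons and for alternative last exons, and Cdc42 and Psap are textbook cases of each kind.

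The last stretches of coding bases by which the leaders of 7 genes differ are printed below. They come from the GENCODE M21 transcripts on GRCm38, 5′ to 3′ on the coding strand. Capitals mark coding bases present in the named leader alone, with flanks in lower case. Only coding bases are shown, and leaders can also differ outside them, as the Cdc42 pair of 2108 and 1448 nt do.
Cdc42-202, leader in pool 1: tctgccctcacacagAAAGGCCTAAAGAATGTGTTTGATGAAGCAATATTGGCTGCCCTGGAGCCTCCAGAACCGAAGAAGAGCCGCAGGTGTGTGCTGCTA
Cdc42-201, leader in pool 2: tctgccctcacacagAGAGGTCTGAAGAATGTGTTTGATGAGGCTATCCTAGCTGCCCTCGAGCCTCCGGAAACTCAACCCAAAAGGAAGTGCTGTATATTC
Psap-205, leader in pool 1: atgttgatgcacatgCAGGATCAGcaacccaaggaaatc
Psap-203, leader in pool 2: atgttgatgcacatgcaacccaaggaaatc
Rbm3-202, leader in pool 1: agactacagtggcagccagggtggctatga
Rbm3-203, leader in pool 2: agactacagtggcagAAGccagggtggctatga
Oaz2-201, leader in pool 1: gggcctctgtggtgcgatgcccctcaccca
Oaz2-206, leader in pool 2: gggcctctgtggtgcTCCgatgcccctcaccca
Mrps10-203, leader in pool 1: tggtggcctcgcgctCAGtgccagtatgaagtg
Mrps10-204, leader in pool 2: tggtggcctcgcgcttgccagtatgaagtg
Rbbp7-203, leader in pool 1: acagtgacaagggagggaaaattgaatgtg
Rbbp7-201, leader in pool 2: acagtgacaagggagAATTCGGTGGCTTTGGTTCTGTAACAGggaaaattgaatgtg
Jkamp-202, leader in pool 1: atggcatgccttggactct
Jkamp-201, leader in pool 2: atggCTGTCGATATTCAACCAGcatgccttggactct
The Cdc42 pair are alternative last coding exons, at chr4:137321106-137321192 for Cdc42-202 and chr4:137322533-137322619 for Cdc42-201, both on the minus strand, and 57 of their 87 positions are identical. The Psap stretch is a 9-base exon at chr10:60297537-60297545. It is only part of the difference, as the annotated coding sequences of Psap-205 and Psap-203 are 1671 and 1653 bases long. Within the coding sequence, single codons separate the pairs of Rbm3 (chrX:8143330-8143332), Oaz2 (chr9:65686269-65686271) and Mrps10 (chr17:47372573-47372575). The Rbm3 leaders, of 1183 and 1225 nt, also differ outside it and share 4 of their 6 introns. Longer coding stretches separate the Rbbp7 leaders (chrX:162769764-162769790) and the Jkamp leaders (chr12:72089315-72089332). The Rbbp7 leaders are 1862 and 2244 nt long and the Jkamp leaders 1874 and 1292 nt. Their shares are therefore not those of the stretches alone.

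The deposited libraries held 23830685 expected counts in pool 1 and 27907662 in pool 2, of which the 84 genes took 1.62% and 1.64%. All 15 Purkinje cell markers examined were at 1 TPM or more in both pools. The summed TPM of that list was 42721 in pool 1 and 40941 in pool 2, and their median was 547 and 367 TPM. Among 7 lists for other cells, no marker was at 0 in either pool, but not all reached 1 TPM in both. All markers of Bergmann glia and astrocytes and of blood did. So did 11 of 12 for oligodendrocytes, 10 of 12 for granule cells and 9 of 10 for endothelium and pericytes. For molecular layer interneurons 7 of 8 did, and for microglia 7 of 11. The 13 markers of Bergmann glia and astrocytes summed to 5035 and 5340 TPM, and the 5 blood markers to 651 and 2274 TPM. Their part in the transcript shares was not tested. In pooled cells, fewer cells of a type and less RNA per cell cannot be told apart.

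Each pool's leader held over 50% of the gene in 17 of the 84 genes, beside 1278 of the 1540 genes of the same range that kept their leader. The top transcript of the 84 held a median of 42.9% of the gene in pool 1 and 44.4% in pool 2, against 78.3% and 79.0% in those 1540. The lead over the next transcript had a median of 5.40 percentage points in pool 1 and 6.13 in pool 2, against 62.1 and 61.7 points in the genes with the same leader. A change of leader was seen in 41 of 85 genes with a pool 1 lead under 5 points (48.2%), in 26 of 115 with a lead of 5 to 10 points (22.6%), and in 13 of 173 with a lead of 10 to 20 points (7.51%). Above that, 3 of 240 genes with a lead of 20 to 40 points and 1 of 1011 with a lead of 40 points or more changed leader. That last gene was Psap.

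**Figure D1:**
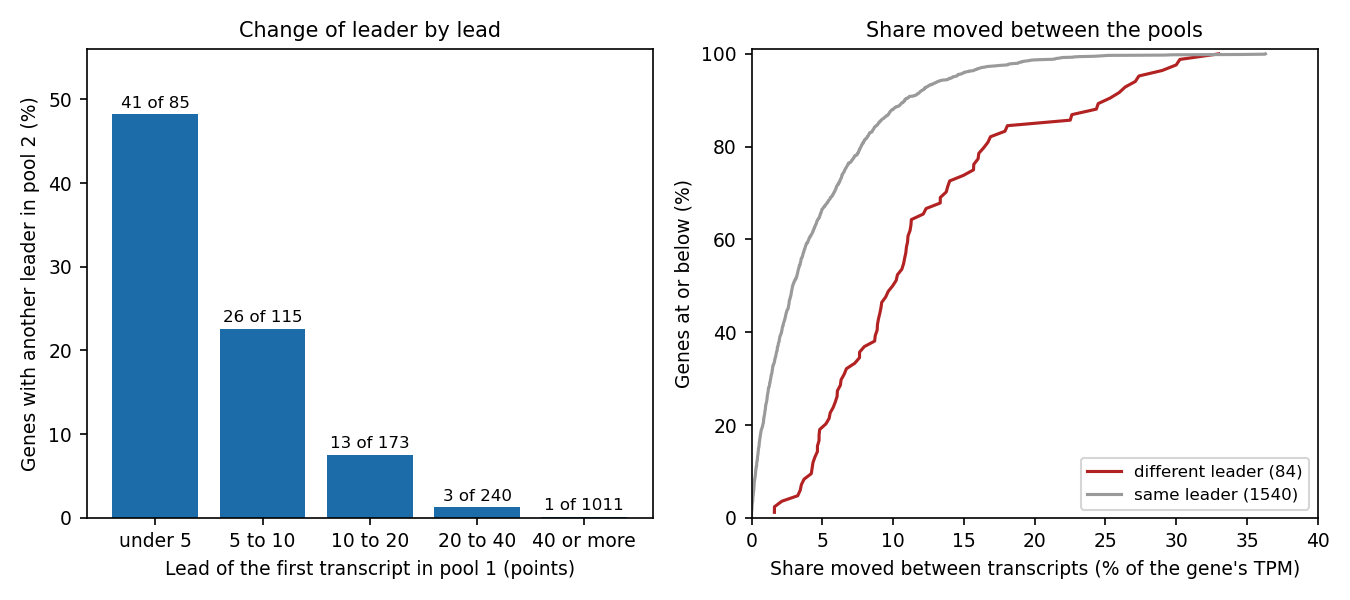
Left, percent of genes with another leader in pool 2 (bars) by the lead of the first transcript in pool 1 (percentage points), with counts above the bars; right, cumulative percent of genes (vertical) by the share of the gene's TPM that moved between transcripts (percent, horizontal) for the 84 genes and for the 1540 with the same leader. The bars go from 48.2% at a lead under 5 points to 1 of 1011 genes at 40 points or more, and the curve of the 84 genes lies to the right, with a median of 10.1% against 2.91%.

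The share of a gene that moved between transcripts, taken as the summed absolute difference in isoform percent over all its transcripts divided by 2, had a median of 10.1% in the 84 genes and ranged from 1.62% in Med28 to 33% in Psap. In the genes with the same leader the median was 2.91% and the highest value 36.3%. At least 10% of the output moved in 42 of the 84 genes (50.0%) and in 184 of the 1540 others (11.9%). The 2 groups thus overlapped: large movement without a change of leader occurred, as did a change of leader with little movement. Because the rule used these shares, the comparison is a description.

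The number of annotated transcripts and the gene's level went with the share of genes that changed leader. Of genes with 2 transcripts, 6 of 229 (2.62%) changed leader, and of genes with 12 or more, 16 of 147 (10.9%). By mean level, 36 of 648 genes at 50 to 100 TPM (5.56%), 32 of 501 at 100 to 200 TPM (6.39%), 10 of 266 at 200 to 400 TPM (3.76%) and 6 of 209 at 400 TPM or more (2.87%) did so. In 74 of the 84 genes, the other pool's leader was the second transcript in both pools.

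Most of the margins were small. The margin is the leader's isoform percent minus that of the other pool's leader in the same pool, and the smaller of its 2 values had a median of 3.18 points. It was 10 points or more in both pools in 7 genes, 5 points or more in both in 31, and under 10 points in both in 50. It was under 1 point in at least one pool in 16 genes. The deposited interval of each transcript is on the TPM scale, and the sources do not state its probability level. Intervals of the 2 leaders lay apart in both pools in 8 genes, in pool 1 in 19, in pool 2 in 29, and in neither pool in 44. An interval need not hold the TPM used here: Icmt-201 was at 159.8 TPM in pool 1, above its upper bound of 159.1.

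**Figure D2:**
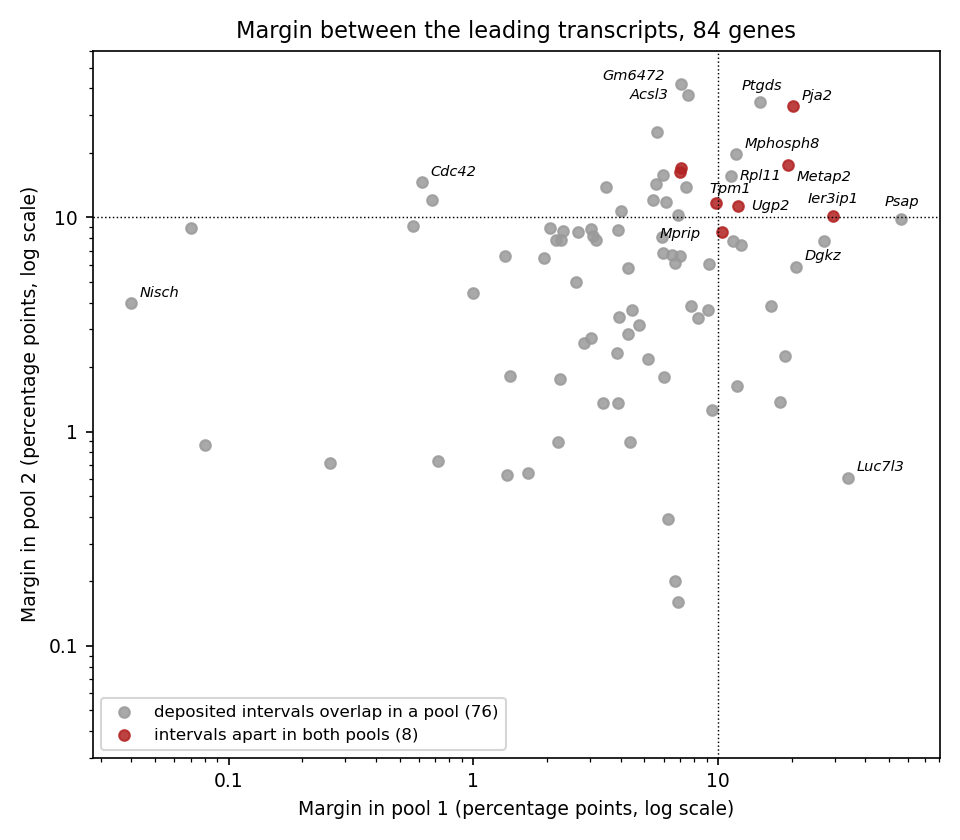
Margin between the leading transcripts in pool 1 (horizontal) and pool 2 (vertical), in percentage points on log axes, for the 84 genes; dotted lines mark 10 points, and the 8 genes whose deposited intervals lie apart in both pools are red. The 7 genes with margins over 10 points in both pools fill the upper right corner, and Luc7l3 and Cdc42 each have a wide margin in 1 pool and a margin under 1 point in the other.

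Pja2, which encodes a ubiquitin ligase that acts on protein kinase A regulatory subunits, ranked first by the smaller of its 2 margins. The gene (ENSMUSG00000024083.11) lies at chr17:64281005-64331916. Pja2-203 took 42.9% of it in pool 1 and 19.6% in pool 2, and Pja2-202 took 22.7% and 52.7%. These margins of 20.3 and 33.1 points made Pja2 the one gene with 20 points or more in both pools. The deposited interval of Pja2-203 ran from 44.2 to 65.6 TPM in pool 1 and from 14.3 to 26.8 TPM in pool 2, and that of Pja2-202 from 15.1 to 37.6 and from 47.7 to 59.5 TPM. Both leaders are annotated with the same coding sequence and share the 3′ end, so the pools differed in which 5′ end led. Another transcript, Pja2-204, stayed between them at 34.4% and 27.8%.

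Metap2 encodes a methionine aminopeptidase, which trims the first residue of new proteins. The coding transcript Metap2-208 (1876 nt) took 48.7% of the gene (chr10:93858489-93897093) in pool 1 and 29.6% in pool 2. The intron-retaining Metap2-211 (547 nt) took 29.3% and 47.3%. Here the 2 leaders share a start and part ways at the 3′ side.

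Ugp2 makes UDP-glucose, the sugar donor for glycogen and glycoproteins. Ugp2-202 held 55.3% in pool 1 and 42.01% in pool 2, against 43.2% and 53.3% for Ugp2-201, at chr11:21321138-21371201. Both code for protein, with different starts and ends. At 56.9 and 50.6 TPM, Ugp2 is also the gene closest above the TPM minimum.

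Ier3ip1 encodes a small membrane protein of the secretory pathway, and its level was high, at 384 and 461 TPM. Coding Ier3ip1-201 took 63.6% and 37.6%, and intron-retaining Ier3ip1-202 took 34.1% and 47.8%. A further intron-retaining transcript, Ier3ip1-204, held 1.60% in pool 1 and 14.3% in pool 2. Both retained-intron forms thus held more of the gene in pool 2.

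In the other genes with intervals apart in both pools, Tpm1, Mprip, Nedd4 and Garnl3, both leaders code for protein. Tpm1 encodes tropomyosin, which coats actin filaments, and has many splice forms. Tpm1-206 took 32.5% in pool 1 and 22.6% in pool 2, while Tpm1-210 took 22.6% and 34.3%. In Mprip, which binds myosin phosphatase, Mprip-202 (8718 nt) took 40.2% and 36.6%, and Mprip-209 (2236 nt) took 29.8% and 45.1%. Another long transcript outside the pair, Mprip-201, took 29.7% and 17.7%, a wider difference than that of Mprip-202.

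Nedd4, a ubiquitin ligase, went the other way in length. Nedd4-202 (660 nt) took 45.5% in pool 1 and 28.99% in pool 2, and Nedd4-201 (5499 nt) took 38.5% and 45.97%. The whole gene was at 109.6 TPM in pool 1 and 69.8 TPM in pool 2.

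Garnl3 carries a Rap GTPase-activating domain. Its pool 1 leader barely moved: Garnl3-201 took 33.7% and 35.5%. Garnl3-202 took 26.7% and 51.9%, and Garnl3-206 took 26.1% and 1.51%. The gene as a whole was at 256 and 143 TPM, and the widest differences were in Garnl3-202 and in a transcript that led in neither pool.

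**Figure D3:**
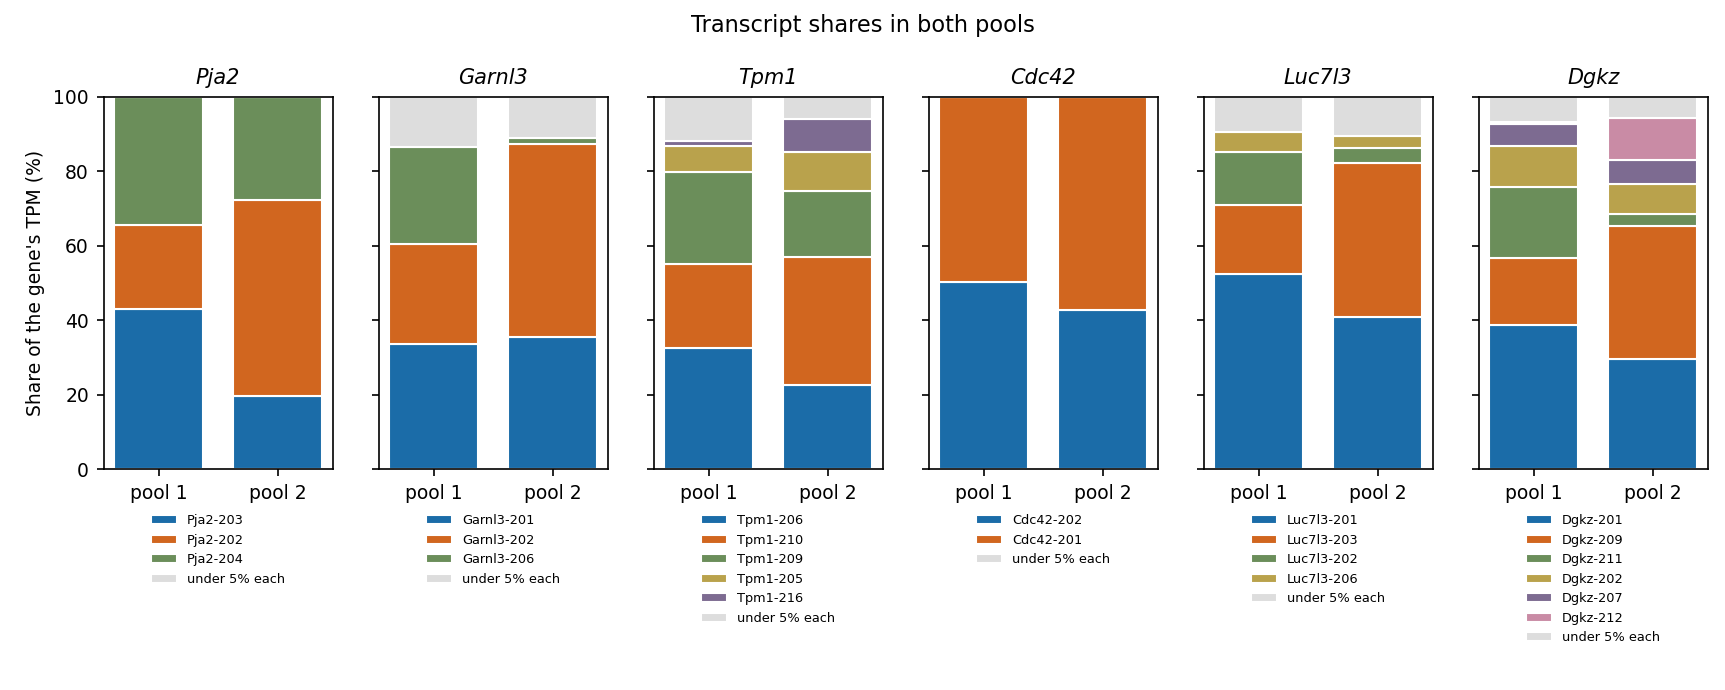
Share of the gene's TPM (percent, stacked bars) held by each transcript in pool 1 and pool 2 for Pja2, Garnl3, Tpm1, Cdc42, Luc7l3 and Dgkz; the pool 1 leader is blue, the pool 2 leader orange, and transcripts under 5% in both pools are joined in grey. In Pja2 the blue share is 42.9% and 19.6% and the orange 22.7% and 52.7%, whereas in Garnl3 the blue share is level and Garnl3-206 (green) is at 26.1% and 1.51%.

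Psap and Cdc42 are genes whose leaders differ at a site of known neuronal splicing. Psap encodes prosaposin, the precursor of the lysosomal saposins, and its 9-base exon was printed above. Psap-205, with the exon, took 78.1% in pool 1 and 45.1% in pool 2, and Psap-203, without it, took 21.9% and 54.9%. The 2 transcripts made up the whole gene in both pools, at 57.7 and 54.1 TPM. The leaders also differ at their 5′ ends and in other coding bases, so their shares are not those of the exon alone. Their deposited intervals were not apart in both pools.

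Cdc42 is a small GTPase that organises actin and cell polarity, and its last exon sets how the protein is anchored to membranes. The ubiquitous form ends in a prenylation signal, and the brain-enriched form can be palmitoylated. Cdc42-202, the ubiquitous form, took 50.3% in pool 1 and 42.7% in pool 2. The brain-enriched Cdc42-201 took 49.7% and 57.3%. Both were abundant in a gene of 505 and 451 TPM, and the margin in pool 1 was only 0.620 points, so the change of leader is a near tie in one pool and 14.6 points in the other.

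Genes listed for RNA processing and RNA-binding proteins held 7 of the 84, out of 28 listed genes in range (25%, beside 5.17% of all genes in range). The difference was not tested. The list is a choice of symbols made with earlier results of these data known, so its share is a description of the list only. Many genes of this group are known to regulate their own splicing. In Luc7l3, a U1 snRNP-associated factor, the most output of these 7 genes moved, 24.4% of it: Luc7l3-201 took 52.5% in pool 1 and 40.8% in pool 2, and Luc7l3-203 took 18.5% and 41.4%. Its margin was 34.1 points in pool 1 but 0.610 in pool 2, close to a tie. Rbm5, a splicing factor linked to apoptosis genes, was led by coding Rbm5-214 at 26.5% and 28.8%, and by intron-retaining Rbm5-206 at 25.9% and 37.96%. In Srsf10, a serine/arginine-rich splicing factor, coding Srsf10-204 took 21.3% and 14.3%, and non-coding Srsf10-210 took 18.2% and 22.2%. In these 3 genes the pool 2 leader was the shorter.

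Srsf5, another serine/arginine-rich factor, had leaders with the same coding sequence, Srsf5-205 at 29.9% and 29.2% and Srsf5-201 at 25.5% and 30.1%. The leaders of Rbm3, a cold-inducible RNA-binding protein, differ in coding sequence by the codon shown above and also differ outside it. Their shares were 42.6% and 37.9% for Rbm3-202 and 39.2% and 39.2% for Rbm3-203. The share of Rbm3-203 was therefore level between the pools, and the order changed through Rbm3-202. Hnrnpa2b1 and Hnrnpa3 encode paralogous nuclear ribonucleoproteins, and in both the longer transcript led in pool 2. Hnrnpa2b1-202 took 52.97% and 47.7%, against 43.5% and 48.97% for Hnrnpa2b1-203. Hnrnpa3-202 took 41.7% and 41.5%, against 39.02% and 46.5% for Hnrnpa3-203. Hnrnpa3 has near-identical copies elsewhere, which makes its values uncertain.

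Ribosomal and translation genes held 4 of 66 in range (6.06%). Rpl11 and Rpl15 encode proteins of the large ribosomal subunit, and Rpl22l1 a paralog of one. Rpl11-201 took 51.99% in pool 1 and 39.6% in pool 2, and Rpl11-210 took 40.7% and 55.2%. Rpl15-202 (1922 nt) took 41.1% and 33.96%, and Rpl15-203 (802 nt), with the same coding sequence, took 31.9% and 40.1%. In Rpl22l1, non-coding Rpl22l1-209 took 46.1% and 41.7%, and coding Rpl22l1-206 took 41.6% and 45.4%. Ribosomal protein genes have many processed copies that can share reads, so these shares are uncertain. Eif5, the GTPase activator of the start-codon scanning complex, was close to even, with Eif5-201 at 50.7% and 49.1% and Eif5-202 at 49.3% and 50.9%. Its level was 304 and 263 TPM.

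Dgkz and Icmt came from the list of Purkinje cell calcium and glutamate signalling genes, and in both a full-length coding transcript led in pool 1 and a short non-coding one in pool 2. Dgkz encodes a diacylglycerol kinase, which ends diacylglycerol signals. Dgkz-201 (3584 nt) took 38.8% and 29.7%, and the intron-retaining Dgkz-209 (480 nt) took 17.8% and 35.6%. Outside the pair, transcripts annotated for nonsense-mediated decay took 19.1% and 3.29% (Dgkz-211) and 0.64% and 11.3% (Dgkz-212). Icmt, which methylates prenylated proteins, sits at 307 and 279 TPM. Icmt-201 (4919 nt) took 52.03% and 48.8%, and Icmt-203 (379 nt) took 45.98% and 50.6%. By expected counts the coding transcript led in both pools in both genes: Dgkz-201 had 4765 counts in pool 1 and 4394 in pool 2, while Dgkz-209 had 239.6 and 576.

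Among the other fixed lists, 2 of 26 cytoskeletal genes changed leader (7.69%), Tpm1 and Sept4, and 1 gene each changed in mitochondrial respiration (of 61), vesicle trafficking (of 32) and transcription (of 27). None did among 39 proteasome and ubiquitin genes, 9 excitability genes, 12 synaptic vesicle genes, 22 chaperones, 7 noncoding genes and 27 genes of lipid and other metabolism. All lists together held 19 of 377 (5.04%), beside 65 of 1247 for genes in no list (5.21%). Sept4, a septin and the most abundant of the 84 genes at 757 and 865 TPM, was close to a tie: Sept4-201 took 25.3% and 25.7%, and Sept4-205 took 25.2% and 26.6%. Ndufaf4, an assembly factor of respiratory complex I, had Ndufaf4-202 at 50.5% and 45.3% and Ndufaf4-203 at 42.2% and 48.7%. Med28 belongs to the Mediator complex, and its Med28-201 took 47.4% and 46.1% and its Med28-202 45.8% and 46.7%. In Sec11a, a catalytic subunit of signal peptidase, both leaders lack an annotated reading frame, Sec11a-208 at 41.99% and 32.3% and Sec11a-209 at 35.02% and 38.9%.

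**Figure D4:**
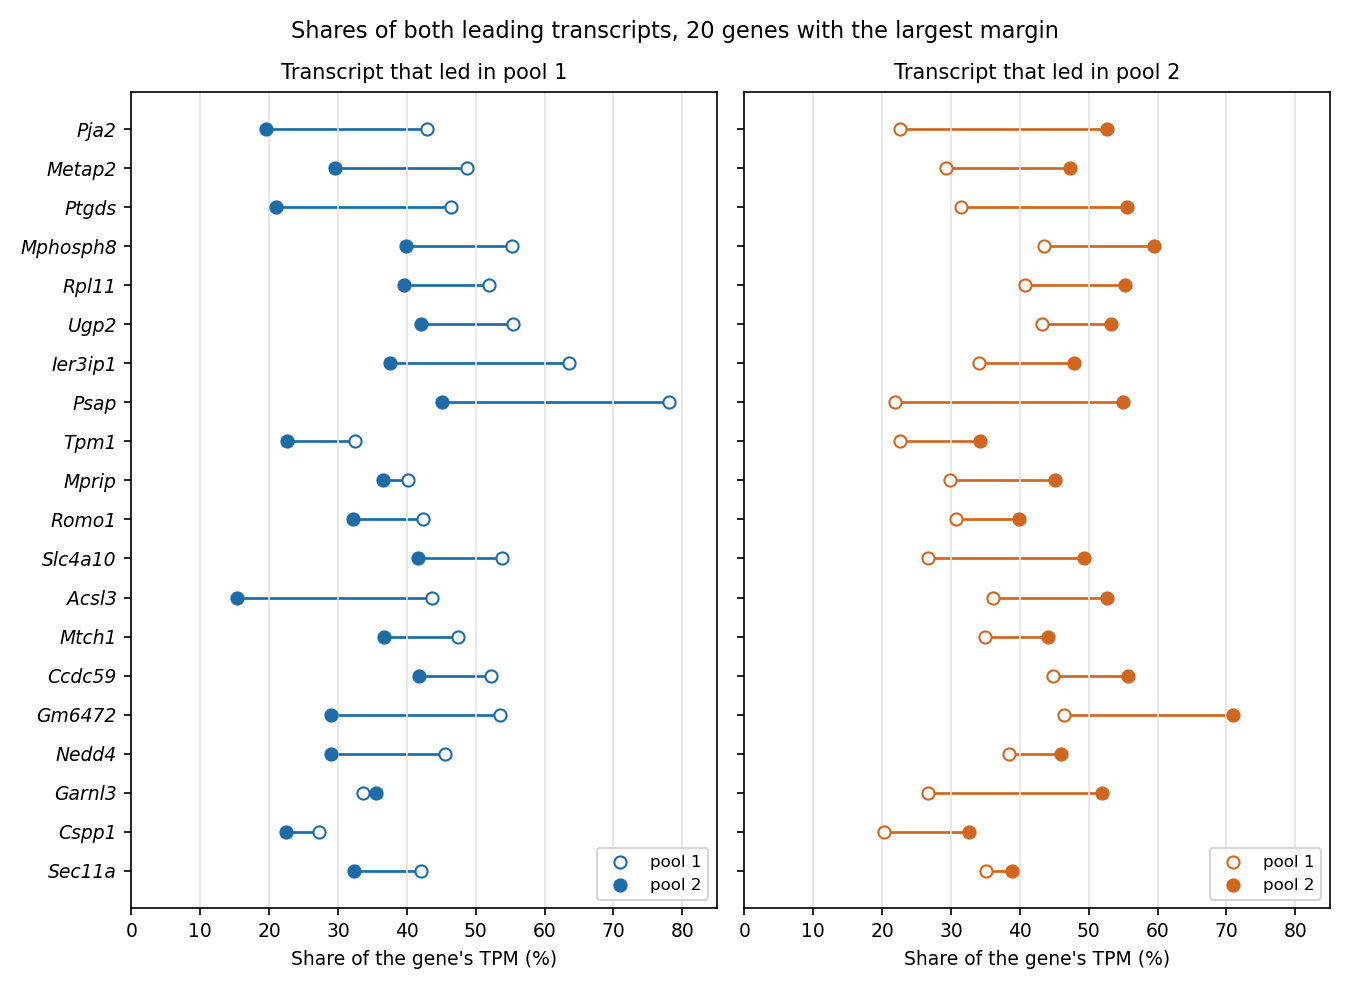
Share of the gene's TPM (percent) held by the pool 1 leader (left) and the pool 2 leader (right) in pool 1 (open circles) and pool 2 (filled circles), for the 20 genes with the largest margin, each pair of circles joined by a line. The pool 2 leader held more of the gene in pool 2 in all 20, and the pool 1 leader held less in 19, Garnl3 being the exception with 33.7% and 35.5%.

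Protein turnover and folding were represented outside those lists. Birc2-204 of Birc2, an inhibitor of apoptosis with ubiquitin ligase activity, took 39.6% and 31.1%, and intron-retaining Birc2-203 took 33.4% and 42.9%. Eloc encodes elongin C, an adaptor of cullin ligases, where Eloc-208 (2014 nt) took 30.97% and 23.9% and Eloc-202 (366 nt) took 25% and 30.8%. Npepps, a cytosolic aminopeptidase, had Npepps-201 at 38.1% and 31.96% and intron-retaining Npepps-202 at 31.5% and 38.1%. All 3 had the shorter leader in pool 2. Pfdn6, a subunit of the prefoldin chaperone, went the other way, with Pfdn6-204 at 54.6% and 41.3% and the longer Pfdn6-201 at 38.1% and 45.2%. Htra1, a secreted serine protease, had non-coding Htra1-205 at 41.7% and 38.9% and coding Htra1-201 at 37.8% and 40.3%. In Tax1bp1, an autophagy receptor, Tax1bp1-201 took 50.7% and 44.6% and Tax1bp1-207 took 47.7% and 53.5%. Jkamp, a membrane protein tied to stress-kinase signalling and protein quality control, had Jkamp-202 at 42.3% and 36.3% and Jkamp-201, with the 18 extra coding bases shown above, at 40.9% and 42.9%.

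Several other members encode mitochondrial proteins, grouped here for description after their values were seen. Romo1, a small inner membrane protein, was at 437 and 545 TPM. Romo1-203 took 42.4% and 32.1%, and Romo1-204, with the same coding sequence, took 30.8% and 39.9%. Mtch1, an outer membrane carrier homolog, had Mtch1-202 at 47.5% and 36.7% and Mtch1-201 at 35.01% and 44.1%. Mtx2, a metaxin of the outer membrane, kept coding Mtx2-201 at 44.6% and 40.1% and intron-retaining Mtx2-202 at 39.4% and 42.3%. The shares of these 3 moved by under 11 points for every leader. In Ucp2, an uncoupling protein, non-coding Ucp2-208 took 30.6% and 30.03% and coding Ucp2-209 took 27.6% and 32.8%. Ptpmt1 encodes a mitochondrial phosphatase of cardiolipin synthesis, but GENCODE M21 types the whole gene as non-coding. Both its leaders are therefore counted as non-coding, Ptpmt1-205 at 41.6% and 34.4% and Ptpmt1-201 at 35.1% and 41.1%. The mitophagy receptor gene Bnip3l was also led by non-coding forms, Bnip3l-204 at 43.6% and 39.6% and Bnip3l-205 at 41.7% and 46.1%. In Mrps10, of the small mitochondrial ribosomal subunit, Mrps10-203 with the extra codon shown above took 42.8% and 35.97%, and Mrps10-204 without it took 40.5% and 44.6%. Marc2, a molybdenum enzyme of the outer membrane, had non-coding leaders at 22.8% and 23.5% (Marc2-202) and at 21.8% and 27.97% (Marc2-206).

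Mocs2 is known to give both subunits of molybdopterin synthase from overlapping reading frames, and its leaders are annotated with different ones. The leaders share all 6 introns and the 3′ end, with starts 41 nt apart, so their shares do not show which protein was made. Mocs2-201, with an annotated coding sequence of 567 nt, took 39.5% and 39.8%, and Mocs2-207, with one of 264 nt, took 39.2% and 40.5%. The margins of 0.260 and 0.710 points make the 2 transcripts even in both pools.

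In the secretory pathway and membrane traffic, most pairs were within 11 points of each other. Emc8-204 of Emc8, a subunit of the membrane protein insertion complex of the endoplasmic reticulum, took 25.3% and 17.7%, and Emc8-205 took 21.4% and 26.5%. Rpn2 encodes a subunit of oligosaccharyltransferase, with coding Rpn2-201 at 45.8% and 40.3% and non-coding Rpn2-206 at 43.6% and 48.2%. In Lrpap1, a chaperone of lipoprotein receptors, Lrpap1-201 (2992 nt) took 44.2% and 33.4% and Lrpap1-205 (716 nt) took 40.7% and 47.4%. The last of these again had the shorter leader in pool 2. Ergic3 encodes a protein that cycles between the endoplasmic reticulum and the Golgi, and here the longer form led in pool 2: Ergic3-205 took 30.3% and 28.9%, and Ergic3-201 took 27.3% and 37.1%. Osbpl1a, an oxysterol-binding protein homolog, had leaders with one coding sequence, Osbpl1a-203 at 34.4% and 32.2% and Osbpl1a-208 at 33.7% and 32.9%. Srp54c encodes a signal recognition particle subunit with near-identical copies, and its pool 1 leader is named Srp54b-201 in GENCODE M21. That transcript took 53.3% and 49.9%, and Srp54c-201 took 46.7% and 50.1%, so both the identity and the order are uncertain. In Appl2, an endosomal adaptor, Appl2-204 took 35.7% and 28.1%, and Appl2-201 took 35.7% and 36.96%.

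Signalling and transport genes included Slc4a10, a neuronal sodium-dependent bicarbonate transporter. Slc4a10-202 took 53.8% in pool 1 and 41.6% in pool 2, and Slc4a10-201 took 26.7% and 49.4%. The leaders share the 3′ end and differ in start and coding sequence. Pde9a, a cyclic GMP phosphodiesterase, had Pde9a-201 at 37.4% and 30.3% and Pde9a-203 at 29.7% and 34.1%. Gng10 encodes a G protein gamma subunit, with non-coding Gng10-202 at 52.8% and 42.8% and coding Gng10-201 at 47.2% and 57.2%. In Ppm1b, a protein phosphatase, Ppm1b-202 took 54.4% and 47.7% and Ppm1b-201 took 42.4% and 49.3%. Arpp19, an inhibitor of protein phosphatase 2A when phosphorylated, had Arpp19-211 at 26.8% and 24.2% and Arpp19-210 at 24.1% and 32.8%. Cib1, a calcium- and integrin-binding protein, had Cib1-201 at 46.9% and 39.3% and Cib1-202 at 37.8% and 42.98%. Nisch, the imidazoline receptor homolog nischarin, was at a tie in pool 1, where Nisch-213 took 23.9% and Nisch-216 23.8%, against 23.5% and 27.5% in pool 2. Akap9, a scaffold for protein kinase A at the Golgi and centrosome, had intron-retaining leaders of equal length (491 nt), Akap9-206 at 37.1% and 36.95% and Akap9-210 at 33.3% and 39.3%. Both leaders are short transcripts of a long gene.

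Cell adhesion, cilium and microtubule genes followed. Ntm encodes neurotrimin, a neural adhesion molecule, at 293 and 292 TPM. Coding Ntm-201 (3022 nt) took 45.5% and 36.2%, and non-coding Ntm-207 (452 nt) took 27.6% and 37.5%. Kif3a, a kinesin-2 motor subunit, had coding Kif3a-203 at 40.98% and 37.3% and Kif3a-206, annotated for nonsense-mediated decay, at 38.7% and 39.03%. Cspp1, a centrosome and cilium protein, was led by retained-intron transcripts in both pools, Cspp1-208 at 27.2% and 22.4% and Cspp1-221 at 20.3% and 32.7%. Ypel3, of the yippee-like family, was close to even at 49.1% and 47.1% for Ypel3-202 and 46.9% and 48.01% for Ypel3-201, in a gene of 274 and 297 TPM.

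Some members outside the fixed transcription list also act on chromatin or transcription, and are grouped here for description only. Mphosph8 binds methylated histone H3 in a silencing complex, and coding Mphosph8-201 (2939 nt) took 55.3% and 39.9% while non-coding Mphosph8-202 (416 nt) took 43.5% and 59.6%. Mier1, a chromatin repressor with many transcripts, had its output spread thin: Mier1-201 took 14.8% and 5.93%, and Mier1-214 took 9.35% and 18.1%. In Rbbp7, a histone-binding subunit of several chromatin complexes, Rbbp7-203 took 50.7% and 47.3% and Rbbp7-201, with the extra coding bases shown above, took 46.8% and 50.7%. The Rbbp7 margins of 3.93 and 3.44 points were small in both pools. Tsc22d3, a glucocorticoid-induced regulator, had non-coding Tsc22d3-202 at 52.2% and 41.7% and coding Tsc22d3-201 at 46.3% and 57.4%. Wdr61, shared by the Paf1 and Ski complexes, had Wdr61-201 at 47.2% and 39.1% and Wdr61-203 at 42.9% and 44.9%. For Prr13, a proline-rich protein, Prr13-201 took 40.02% and 33.4% and Prr13-204 took 36.02% and 44.1%. Leaders of Wdr61 and of Prr13 share their coding sequence.

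Metabolic genes included Acsl3, an acyl-CoA synthetase of lipid droplets, whose pool 1 leader had the lowest TPM ratio of the 84, with a log2 value of −2.53 (pool 2 over pool 1). Acsl3-204 (502 nt) took 43.6% in pool 1 and 15.4% in pool 2, and Acsl3-205 (2976 nt) took 36.1% and 52.6%. Ptgds, which makes prostaglandin D2 and is known from meninges, choroid plexus and oligodendrocytes, had non-coding Ptgds-204 at 46.4% and 20.96% and coding Ptgds-202 at 31.5% and 55.5%. Its margins were 14.9 and 34.5 points. The 12 oligodendrocyte markers summed to 246 TPM in pool 1 and 234 TPM in pool 2, and their part in the Ptgds shares was not tested. Oaz2, an antizyme that restrains polyamine synthesis, had Oaz2-201 at 42.5% and 27.6% and Oaz2-206, with the extra codon shown above, at 36.8% and 52.7%. The deposited intervals of these Oaz2 leaders overlapped over most of their range in both pools. In pool 2 they ran from 19.3 to 91.1 TPM for Oaz2-201 and from 23.04 to 95.6 TPM for Oaz2-206. The Oaz2 margin of 25.1 points in pool 2 is therefore not separated by these intervals. Nme1, a nucleoside diphosphate kinase with close paralogs, had Nme1-201 (493 nt) at 49.8% and 45.6% and Nme1-203 (3181 nt) at 45.5% and 48.5%. Fam213a, a redox-active protein, had Fam213a-202 at 46.1% and 41.1% and Fam213a-201 at 43.8% and 48.95%.

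A last set of genes has functions that are less well described. Ccdc59-201 of Ccdc59 took 52.2% and 41.8%, and intron-retaining Ccdc59-203 took 44.8% and 55.7%. For Tmem256, Tmem256-201 took 51.8% and 47.7% and Tmem256-203 took 47.04% and 50.9%, in a gene of 511 and 558 TPM. Smim7, another small membrane protein gene, had Smim7-203 at 51.03% and 45.5% and Smim7-201 at 48.97% and 54.4%. Shares of the leaders in these genes differed by about 11 points or less between pools. In Mtdh, which encodes metadherin, coding Mtdh-201 took 34.6% and 31.01% and Mtdh-204, annotated for nonsense-mediated decay, took 28.7% and 39.2%. Cryzl1 had Cryzl1-211 at 27.4% and 23.2% and Cryzl1-202 at 21.1% and 23.6%. Mthfsd had Mthfsd-210 at 34.9% and 28.8% and Mthfsd-212 at 33.5% and 29.5%; both shares were lower in pool 2, as other transcripts of the gene took more. Of the genes named only by clone, 4933434E20Rik had 4933434E20Rik-203 at 32.9% and 25.2% and 4933434E20Rik-207 at 30.04% and 27.8%. The other, 2210016L21Rik, had 2210016L21Rik-201 at 38.96% and 28.97% and 2210016L21Rik-203 at 38.3% and 41.1%. Ngrn, which encodes neugrin, was close to even in pool 2 only, with Ngrn-201 at 53.4% and 49.9% and Ngrn-202 at 46.6% and 50.1%. Gm6472 is annotated as a transcribed processed pseudogene, a copy of another gene's mRNA, so its reads may belong elsewhere. Gm6472-201 took 53.5% and 29.1% and Gm6472-202 took 46.5% and 70.95%.

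Members near the edge of the rule show how narrow some changes of leader were. Ngrn, Sept4, Appl2 and Nisch had the smallest margins, down to 0.04 points in Nisch. Just outside, Arf4 kept its leader with leads of 0.05 points in pool 1 and 4.32 in pool 2, Ppp1cc with 3.12 and 0.15, Rpl38 with 0.21 and 4.69, and Unc80 with 0.24 and 1.32. Near the TPM minimum, Fam45a, Abcc5, Mkln1 and Ift81 changed leader but fell short of 50 TPM in 1 pool, at 49.5, 49.4, 48.4 and 48.3 TPM. The closest members above it were Ugp2 (50.6 TPM in its lower pool), Acsl3 (51.8), Birc2 (51.8) and Slc4a10 (53.2).

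The leader of pool 2 was the shorter transcript in 53 of the 84 genes (63.1%), the longer in 30, and equal in Akap9. The median length of the leaders was 1762 nt in pool 1 and 1003 nt in pool 2. In pool 1, 11 leaders were under 600 nt, and in pool 2, 22. Where the lengths differed at least 4-fold, in 20 genes, the pool 2 leader was the shorter in 17, with Nedd4, Acsl3 and Nme1 as the exceptions. A like measure exists for genes that kept their leader: the transcript that gained most share in pool 2 was shorter than the one that lost most in 836 of 1540 (54.3%), and in 54 of the 84 (64.3%). The linked Smart-seq protocol for pool 2 alone cannot be told apart from the pools themselves.

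**Figure D5:**
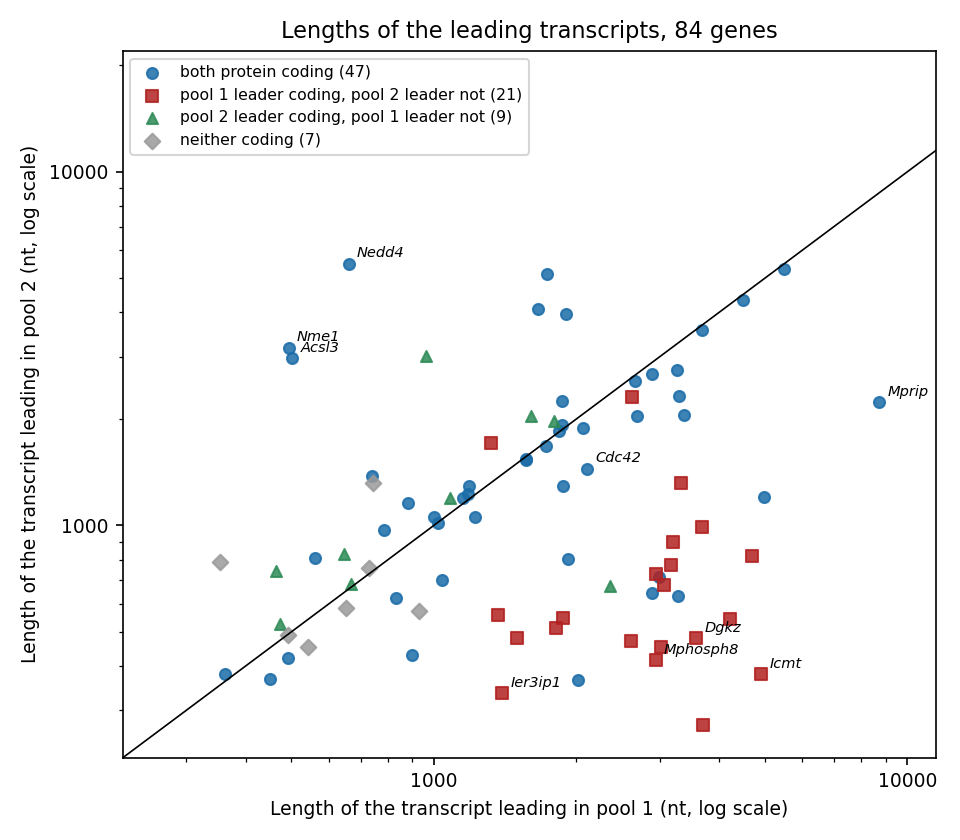
Length of the leading transcript in pool 1 (horizontal) and pool 2 (vertical), in nt on log axes, for the 84 genes, coloured by annotated coding status; the line marks equal length. Of the points, 53 lie below the line, and Icmt, Mphosph8 and Dgkz lie far below it, while Nedd4, Acsl3 and Nme1 lie far above.

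Transcript types followed the same pattern. Leaders annotated as protein coding numbered 68 in pool 1 (81.0%) and 56 in pool 2 (66.7%), beside 1305 of 1540 leaders in the genes that kept theirs (84.7%). Retained-intron leaders numbered 2 in pool 1 and 12 in pool 2, processed transcripts, which have no annotated reading frame, 14 and 12, and transcripts annotated for nonsense-mediated decay 0 and 3. A pseudogene transcript, of Gm6472, completed the pool 2 leaders. In 21 genes the pool 1 leader alone was coding, and the pool 2 leader was shorter in 20 of them, all but Ngrn. In 9 genes the pool 2 leader alone was coding, and it was shorter in 1, Ndufaf4. Where both were coding, in 47 genes, the pool 2 leader was shorter in 29. Coding status and length of the leaders thus went together in these genes.

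For 72 genes both leaders had the same length in the deposited files and in GENCODE M21, and their structures could be compared. With ends within 50 nt counted as shared, 12 pairs shared both ends, 11 shared only the 3′ end, 13 only the 5′ end, and 36 neither. Both leaders were annotated as coding, with different coding sequences in 29 pairs and with the same coding sequence in 9 (Pja2, Romo1, Rpl15, Wdr61, Prr13, Pfdn6, Srsf5, Ypel3 and Osbpl1a). Coding sequences were compared by annotated coordinates alone. Some are not a whole number of codons, such as 590 nt in Nedd4-202 and 1492 nt in Mprip-209. A different coding sequence therefore need not mean a different complete protein. In 19 pairs the pool 1 leader alone was coding, in 8 the pool 2 leader alone, and in 7 neither.

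Isoform percent is per length, and by read counts the order of the leaders stayed the same between pools in most genes. By expected counts, the pool 1 leader had more counts in both pools in 39 genes, the pool 2 leader in both pools in 19, and the order changed between pools in 26. In Icmt, Icmt-201 had 15286 and 16518 expected counts and Icmt-203 had 785 and 995, although its shares of TPM were about equal. On the TPM scale, the pool 1 leader was lower and the pool 2 leader higher in pool 2 in 51 genes, both were higher in 15 and both lower in 18. The median log2 TPM ratio, pool 2 over pool 1, was 0.27 for the pool 2 leaders (range −0.49 to 1.28) and −0.25 for the pool 1 leaders (range −2.53 to 0.52).

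Whole-gene levels of the 84 genes were alike in the pools at the median. The log2 ratio of gene TPM (pseudocount 1), pool 2 over pool 1, had a median of −0.0014, with 42 genes higher and 42 lower, against 0.012 in the genes that kept their leader. At a 1.5-fold difference, 1 of 84 was higher in pool 2 (1.19%, beside 0.924% of all genes in range) and 4 were lower (4.76%, beside 2.77%). The higher gene was 2210016L21Rik, at 68.1 and 103 TPM. The lower genes were Acsl3 (106 and 51.8 TPM), Garnl3 (256 and 143), Nedd4 (109.6 and 69.8) and Slc4a10 (81.8 and 53.2). These 4 are all among the 20 genes with the largest margin by the smaller of its 2 values. Scaled to the spike-ins, the 84 genes had a median of 0.62 in place of −0.0014. That scale shifts every gene alike, by the median spike-in log2 ratio of −0.63, and so does not set the 84 genes apart. The split between transcripts within a gene does not depend on it.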

How the data were processed

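RNA from 2 pools of 50 Purkinje cells was sequenced, and the deposited files give gene and transcript tables for each pool. The values used are the deposited expected counts, TPM and isoform percent (each transcript's percent of its gene's TPM), all made by the authors on mm10 with GENCODE M4, per the notes deposited with the files. The deposited interval bounds of each transcript, a signal on the TPM scale, were used as given. The quantification tool, its settings and its use of strand are not given in the sources used here. Overlapping and antisense genes cannot be told apart. Strand, repeated sequence and short transcripts can all change how reads are split between transcripts of a gene.

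The leading transcript was the one with the highest isoform percent. There were 0 ties. Spike-ins and genes of summed TPM under 50 in either pool were left out. The depth was 23830685 and 27907662 expected counts, of which spike-ins took 1.40% and 0.940%. Names, types and structures came from GENCODE M21, in which 151 of the 168 leaders had the length in the deposited files. Python 3.11.15 with numpy 2.4.6, pandas 2.3.3, scipy 1.17.1 and matplotlib 3.10.9 was used, and edgeR 4.0.16 in R 4.3.3 gave TMM scaling as an alternative only. The script that finds leaders was tested on simulated data, with leaders swapped only in genes of wide lead. That check does not cover the narrow leads of most members. With 1 group of 2 pools and a rule based on their difference, no test was made. Where separate animals are not established, the spread between pools may be technical.

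The members and gene lists were chosen with earlier results of these data known. Genes named in full were the 20 with the largest margin, the 12 of highest mean TPM, those in a gene list and the 4 with the smallest margin. Each other member is given at least once with its shares, except 1 member that is not reported here.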

Additional observations from a re-analysis of the deposited data

How the results depend on the processing

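The count of 84 genes with a different leading transcript was 391 of 4583 at a TPM minimum of 10 and 46 of 914 at a minimum of 100. It was 7 with margins of at least 10 points in both pools, 1 with at least 20 points, and 8 with the deposited intervals of the leaders apart in both pools; these criteria can only remove genes. Ranking by the deposited posterior-mean percent gave 87 genes, 81 of them shared, whereas ranking by expected count gave 62, of which 20 were shared. With protein-coding transcripts alone the count was 59, with transcripts of the same coding sequence merged 70, and with transcripts of at least 300 nt 83. The share of genes with the shorter leader in pool 2 was 63.1% by effective length as well, and 85.7% (6 of 7 genes) among those with margins of at least 10 points. The median share moved was 10.1% with transcripts of at least 10 expected counts. The median whole-gene log2 ratio was −0.0014 with a pseudocount of 0.1, −0.0074 with TMM scaling and 0.62 with spike-ins as the scale, whose median log2 ratio over 49 spike-ins was −0.63.

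No paired analysis was possible because the labels give 1 group and its 2 pools are not paired with samples of another. Leaving out either pool leaves no comparison. The effect of depth on the shares was not tested, and no alternative separates the pools from how their libraries were made.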
